A study of Mus musculus with 24 samples.

Results

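The response to a 24 h fast was followed in livers whose hepatocytes lack p110α, the catalytic subunit of phosphoinositide 3-kinase that Pik3ca encodes and that the insulin receptor engages. The comparison holds the 12 arrays labelled p110aLKO, of 24 in the series. They divide into 6 arrays of fasted mice (LKO_Fasted) and 6 of fed mice (LKO_Fed), with 1 liver per array. LKO mice carried floxed Pik3ca alleles on both chromosomes and a Cre recombinase driven by the albumin promoter, so that the deletion is aimed at hepatocytes and not at the other cells of the liver. All animals were males of 12 weeks on a C57BL/6J background, and all were killed 16 h after lights came on (ZT16). Fed mice ate chow freely until then, and fasted mice had been without food for the preceding 24 h. The remaining 12 arrays come from littermates with the same floxed alleles and no Cre, fed or fasted in the same way (LWT_Fed and LWT_Fasted, 6 arrays each). They are used here to set levels and fasting changes in LKO against those in LWT.

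A fasting liver changes fuel. When insulin falls, the transcription factor SREBP1c and the carbohydrate sensor ChREBP drive fatty acid synthesis and glycolysis less, and FOXO factors, no longer held out of the nucleus by AKT, raise genes such as Igfbp1 and Irs2. Fatty acids that arrive from adipose tissue activate the nuclear receptor PPARα, whose targets import, oxidise and store them and turn them into ketone bodies. Glucagon and glucocorticoids sustain glucose production over the same hours. p110α lies on the insulin branch of this circuit, upstream of AKT.

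Each value below is the normalized log2 signal of 1 probe in 1 array, and each gene is read through its brightest probe. A fold change is the fasted minus the fed level on the log2 scale, estimated by limma with its standard error (SE). A gene was called when its p-value, adjusted by Benjamini-Hochberg over all 32595 probes, did not exceed 0.05 and the change was larger than 1.5-fold. In LKO livers, 2749 of 21779 genes were called (12.6%). Of these, 1266 were higher in fasted livers (5.81%) and 1483 were lower (6.81%). For 4756 genes (21.8%), called or not, the 6 fasted arrays did not overlap the 6 fed arrays. The called increases included 121 genes of more than 4-fold and 38 of more than 8-fold, and the called decreases 73 and 14. The median log2 fold change of all genes was −0.02. Slides, which number 3, each carried 2 arrays of every group, and 2723 of the 2749 called genes changed in the same direction on all of them. The calls came from these same arrays, so this agreement is a description and not a replication. RNA was taken from whole liver, so fewer cells of a type and less RNA per cell cannot be told apart.

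Some LKO_Fasted arrays stood apart from their group. Replicate 4 had the lowest weight among the LKO arrays when limma weighted arrays by their scatter (0.356), and any pair of LKO_Fasted arrays correlated across probes with r from 0.985 to 0.996. Within the other groups the lowest r was 0.992. Replicates 1 and 2 differed from replicates 3 to 6 on 514 and 30 probes described at the end, and they had the largest shares of spots well above background among the LKO arrays (61.8% and 63.0%, in a range of 54.7% to 63.0%). Leaving out replicates 1 and 2 gave 3103 called genes, of which 2570 were also among the 2749, and leaving out replicate 4 gave 2702, of which 2613 were. Hepatocyte markers were bright in every LKO array. None of the 7 measured markers (among them Alb and Apoa2) was called, and their summed signal lay between 21.27 and 21.30 on the log2 scale in fasted and between 21.30 and 21.35 in fed livers.

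The targeted gene was read by 1 probe, which the files place at chr3:32364747-32364806 of mm9. Its signal ran from 12.30 over a median of 12.50 to 13.02 in fed LKO livers and from 12.03 over 12.27 to 12.50 in fasted ones. Pik3ca was not called by fasting in LKO (log2 fold change −0.25, SE 0.117, adjusted p = 0.0864). Its means were 12.54 fed and 12.26 fasted in LKO, against 11.91 and 12.28 in LWT, so that the arrays labelled LKO were on average higher when fed and marginally lower when fasted. Where the probe lies relative to the deleted exons was not examined, and it therefore checks neither the deletion nor the labels.

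The largest increase was that of Cidec, which encodes a protein of the lipid droplet surface that helps small droplets fuse. Its signal was 7.31 in the lowest, 7.54 in the median and 7.96 in the highest fed array, against 13.75, 15.01 and 15.48 in fasted arrays. The groups were thus far apart, with the lowest fasted array well above the highest fed one. The log2 fold change was 7.47 (SE 0.257, adjusted p = 1.09e-14), or 177-fold, and it ranged from 6.57 to 7.95 over the slides. Acot2, a mitochondrial thioesterase that frees fatty acids from coenzyme A, went from a range of 7.02 to 8.61 (median 7.73) in fed to one of 12.16 to 14.53 (median 14.09) in fasted livers, an increase of 6.18 (SE 0.29, adjusted p = 6.35e-13). Its lowest fasted value was that of replicate 4. The ω-hydroxylase Cyp4a14, the fasting hormone Fgf21, the peroxisomal thioesterase Acot5 and the metallothionein Mt2 completed the 6 leading increases, with log2 fold changes of 5.35 (SE 0.349), 5.21 (SE 0.267), 4.94 (SE 0.241) and 4.86 (SE 0.455). Fgf21 read 6.13, 6.67 and 7.17 in the lowest, median and highest fed array and 11.47, 11.93 and 12.31 in the fasted ones. Leading increases and decreases were drawn only from genes whose fed and fasted arrays do not overlap (21.8% of all genes). Their lack of overlap is thus a condition of choice and not a result.

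**Figure D1:**
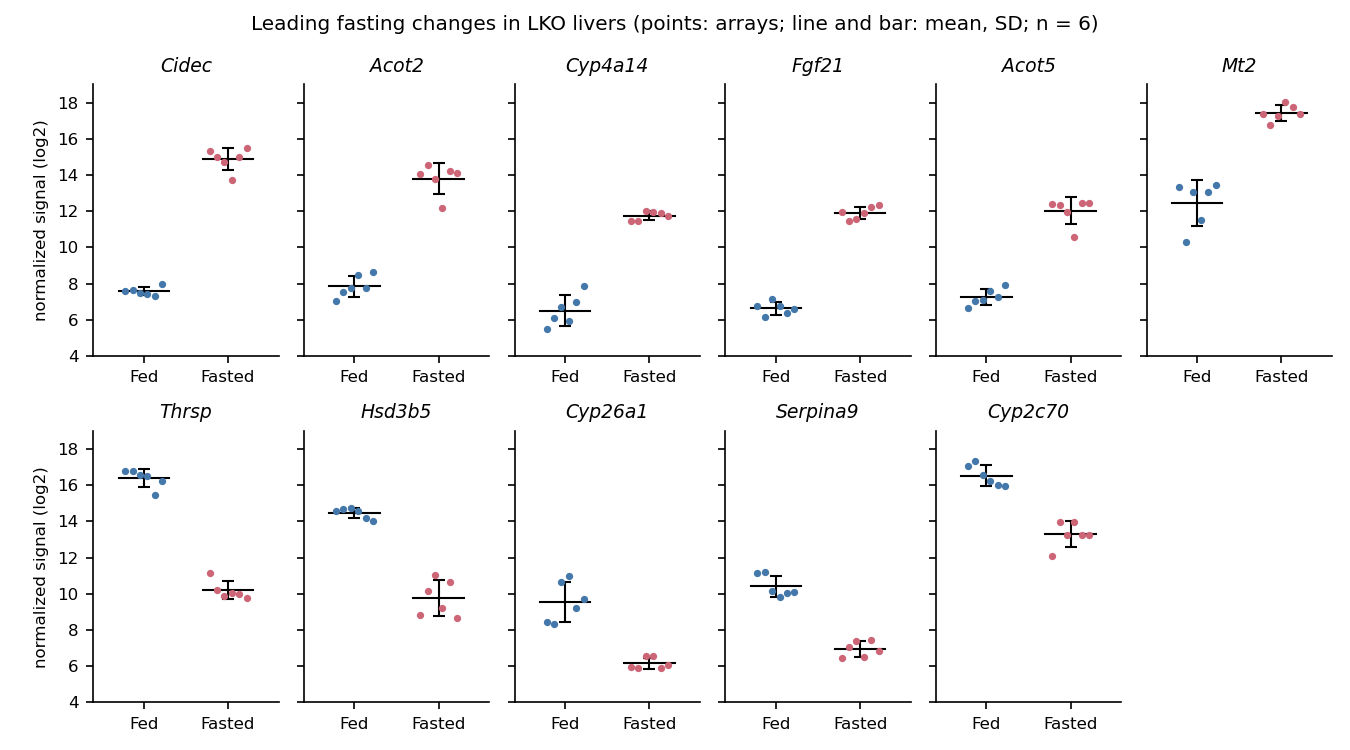
Normalized log2 signal (vertical axis) of the 11 named genes with the leading increases and decreases in LKO livers, in the 6 fed and the 6 fasted arrays. Points are arrays, and the line and bar are the mean and SD. Only genes with separate fed and fasted arrays were taken. For Cidec the fed arrays end at 7.96 and the fasted arrays start at 13.75.

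Among decreases, Thrsp led. It encodes Spot 14, a nuclear protein that responds to thyroid hormone and carbohydrate and promotes lipogenesis. Thrsp read 15.44, 16.52 and 16.81 in the lowest, median and highest fed array and 9.79, 10.03 and 11.17 in the fasted ones. It fell by 6.29 on the log2 scale (SE 0.241, adjusted p = 3.43e-14), or 78.2-fold, and a second probe of the gene gave −6.40. Hsd3b5, a male-biased steroid dehydrogenase of the liver, had fed values from 14.03 to 14.72 and more scattered fasted values from 8.66 to 11.02. It fell by 4.58 (SE 0.346, adjusted p = 6.50e-10). The retinoic acid hydroxylase Cyp26a1, the serpin Serpina9 and the cytochrome P450 Cyp2c70, which in mice makes muricholic acids, fell by 3.46 (SE 0.45), 3.41 (SE 0.308) and 3.36 (SE 0.31). In Cyp2c70 the fed arrays spanned 15.96 to 17.32 and the fasted arrays 12.08 to 13.99.

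The promoters of the leading increases and decreases are shown because these genes moved the furthest in either direction. Each window is 300 bases long, most of it upstream of the RefSeq start, and is written on the gene's own strand (GRCm38.p6, Cidec at chr6:113435711-113436010, Acot2 at chr12:83987611-83987910, Thrsp at chr7:97417501-97417800 and Hsd3b5 at chr3:98645485-98645784). Capitals mark CCAAT or its reverse complement ATTGG.
Cidec: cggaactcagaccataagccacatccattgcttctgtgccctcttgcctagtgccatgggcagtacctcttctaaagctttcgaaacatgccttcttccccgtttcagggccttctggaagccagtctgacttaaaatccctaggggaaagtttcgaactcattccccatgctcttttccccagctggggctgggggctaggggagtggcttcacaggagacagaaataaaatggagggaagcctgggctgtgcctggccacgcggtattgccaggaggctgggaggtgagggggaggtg
Acot2: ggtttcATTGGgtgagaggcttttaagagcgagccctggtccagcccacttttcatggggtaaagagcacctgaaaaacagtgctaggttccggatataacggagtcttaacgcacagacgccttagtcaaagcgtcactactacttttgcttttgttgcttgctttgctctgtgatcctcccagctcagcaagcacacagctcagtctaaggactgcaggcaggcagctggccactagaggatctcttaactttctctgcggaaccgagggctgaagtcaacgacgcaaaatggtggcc
Thrsp: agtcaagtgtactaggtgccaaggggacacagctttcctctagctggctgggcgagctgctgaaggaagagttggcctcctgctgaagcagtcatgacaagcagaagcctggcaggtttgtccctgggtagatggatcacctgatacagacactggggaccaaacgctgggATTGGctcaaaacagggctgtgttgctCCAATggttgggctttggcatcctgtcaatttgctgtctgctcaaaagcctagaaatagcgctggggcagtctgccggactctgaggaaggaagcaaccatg
Hsd3b5: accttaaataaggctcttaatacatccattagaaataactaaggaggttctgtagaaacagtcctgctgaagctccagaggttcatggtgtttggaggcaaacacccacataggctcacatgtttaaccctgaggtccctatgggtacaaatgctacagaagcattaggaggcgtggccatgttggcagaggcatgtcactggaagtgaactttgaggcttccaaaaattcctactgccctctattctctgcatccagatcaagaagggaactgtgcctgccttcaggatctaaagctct
The letters CACGTG (E-box), AGGTCA (nuclear receptor half-site), GTAAACA (forkhead), TGACGTCA (cAMP response element), TATAAA and CCAAT were searched on both strands, the last 2 of these after the first 4 had given no match. CCAAT occurred once in Acot2 and 2 times in Thrsp, and no other match was found in these windows or at a further RefSeq start of Cidec. Of all 32851 windows of this length, 37.4% held CCAAT, 16.3% AGGTCA, 13.6% TATAAA, 7.15% CACGTG, 3.65% GTAAACA and 1.79% TGACGTCA.

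Gene groups were described through 22 lists that hold 318 measured genes, of which 92 were called higher and 75 lower. Genes of fatty acid oxidation rose together. Of 22 measured, 19 were called higher and none lower, with a median log2 fold change of 1.21. The other 3, Acads, Hadh and Acaa2, passed the adjusted p but not the fold, and 20 of the 22 had no overlap between fed and fasted arrays. Ehhadh, the bifunctional enzyme of peroxisomal β-oxidation, rose from a range of 12.37 to 12.99 (median 12.69) to one of 15.84 to 17.31 (median 16.95), by 4.23 (SE 0.192, adjusted p = 4.86e-13). Crat, which exchanges acyl groups between carnitine and coenzyme A, rose by 2.58 (SE 0.156), and Pex11a, which drives peroxisome division, by 2.13 (SE 0.142). Cpt1a, the gatekeeper of fatty acid entry into mitochondria, read 14.05 to 14.48 in fed and 15.54 to 15.97 in fasted livers and rose by 1.65 (SE 0.0771, adjusted p = 6.35e-13). The mitochondrial thiolase Acaa2, already bright when fed (17.51 to 17.70), changed by 0.31 (SE 0.0586) and reached 17.60 to 18.02.

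PPARα targets outside oxidation had the highest median log2 fold change of the 22 lists, 3.07. Of 18 measured, 16 were called higher and none lower. Fabp1 and Cd36, which bind and take up fatty acids, had values of 0.05 and 0.08 and were not called. Cyp4a10, a partner of Cyp4a14 in ω-hydroxylation, spread widely in fed livers (10.82, median 12.56, 13.96) and narrowly in fasted ones (16.46, median 17.25, 17.43), and rose by 4.86 (SE 0.364). Acot1, the cytosolic relative of Acot2, rose by 4.43 (SE 0.227) from 11.80 to 13.45 in fed to 15.94 to 17.34 in fasted arrays. Pdk4, the kinase that shuts pyruvate dehydrogenase and so spares glucose carbon, rose by 4.32 (SE 0.358). Acyl-CoA thioesterases and Cyp4a enzymes are families of near copies on chromosomes 12 and 4, and probes may read more than 1 member.

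Ketone body genes rose less. Among 6 measured, 5 were called higher and none lower (median 0.69). Slc16a1, the monocarboxylate transporter MCT1, rose by 1.56 (SE 0.0944), Acat1 by 0.71 (SE 0.102) and Bdh1, which interconverts the ketone bodies, by 0.67 (SE 0.127). Slc16a6, the transporter that exports ketone bodies, had a value of −0.06 and was not called. The 5 calls became 2 when replicates 1 and 2 were left out and arrays were not weighted.

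Coats and lipases of the lipid droplet rose together with Cidec. Of 13 measured, 9 were called higher and none lower (median 2.04), and 11 of the 13 did not overlap between the groups. G0s2, the inhibitor of the lipase ATGL, rose by 3.60 (SE 0.303) from 11.26 to 12.24 in fed to 14.49 to 15.74 in fasted livers. Pnpla2, which encodes ATGL itself, rose by 2.27 (SE 0.114) from 11.60 to 12.10 to 13.69 to 14.38. Both the lipase and its inhibitor were thus higher in every fasted array than in any fed one. The droplet coats Plin2, Plin4 and Plin5 rose by 2.83 (SE 0.13), 2.31 (SE 0.194) and 2.04 (SE 0.0843), and Hilpda, another inhibitor of ATGL, by 2.39 (SE 0.253). Summed markers of adipose tissue, in which Cidec and Plin4 are also abundant, lay at 8.75 to 8.95 in fed and 8.69 to 9.21 in fasted livers, and 0 of its 5 measured markers were called.

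**Figure D2:**
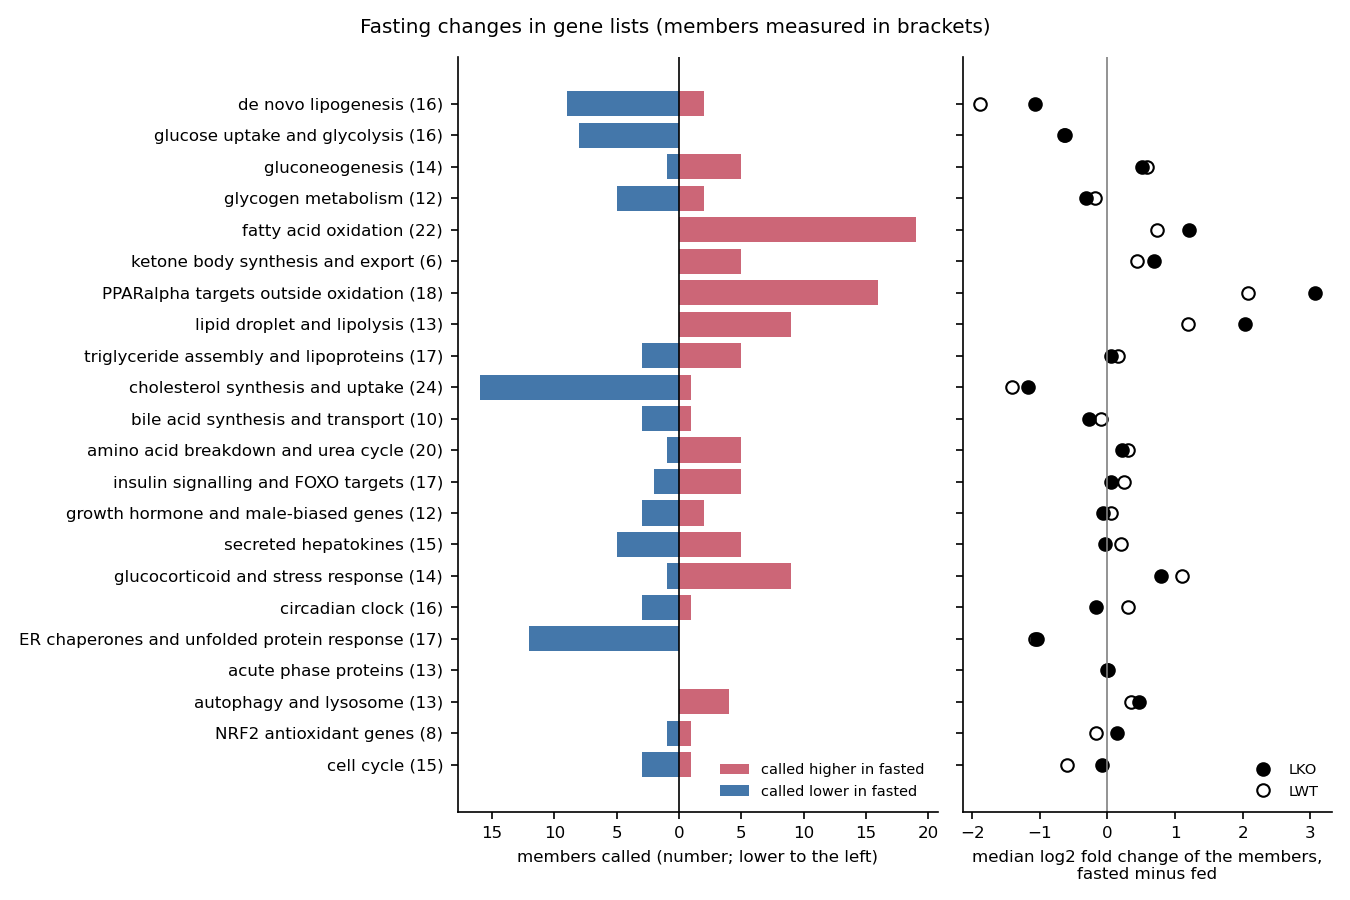
Number of measured members called higher (to the right) and lower (to the left) by fasting in LKO livers for each gene list, with the number measured in brackets and the median log2 fold change of each list in the second panel. Fatty acid oxidation stands at 19 higher and 0 lower of 22, cholesterol synthesis at 1 higher and 16 lower of 24.

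Lipogenic genes fell, with exceptions. Of 16 measured members of the de novo lipogenesis list, 9 were called lower and 2 higher, and the median log2 fold change was −1.07. Fasn, the fatty acid synthase, read 16.26, 16.74 and 16.88 in the lowest, median and highest fed array and 13.25, 13.72 and 14.11 in fasted ones, and fell by 2.94 (SE 0.149, adjusted p = 1.55e-12). Srebf1, which encodes SREBP1, fell by 2.82 (SE 0.132) from 15.03 to 15.55 to a range of 12.25 to 12.69. Acly, which supplies cytosolic acetyl-CoA, fell by 2.44 (SE 0.153), and its highest fasted array was replicate 4 at 13.40. Pnpla5 and Pnpla3, lipases of the patatin family that insulin and SREBP1c raise, were well above background in all 6 fed arrays and in none of the fasted ones. They were therefore at least 7.47-fold and at least 4.47-fold lower. In the other direction, the elongase Elovl5 rose by 1.73 (SE 0.126) from 13.20 to 13.76 to 14.94 to 15.38, and its other probes gave 1.51 and 0.51. Fads2, a desaturase that works with Elovl5 on polyunsaturated fatty acids, rose by 0.60, just past the fold of 1.5, and was not called under 9 of the alternative settings. Acacb, the carboxylase isoform whose malonyl-CoA restrains Cpt1a, had the value nearest to none, −0.06 (SE 0.223), and its sign turned with the processing.

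Glucose uptake and glycolysis fell in 8 of 16 measured members and rose in none (median −0.64). Pklr, the liver pyruvate kinase and a classical ChREBP target, fell by 2.50 (SE 0.192, adjusted p = 8.15e-10) from a range of 9.93 to 10.47 to one of 6.64 to 8.36. Pfkfb3, whose product raises fructose-2,6-bisphosphate, fell by 1.80 (SE 0.185), the glucose transporter Slc2a2 by 1.41 (SE 0.146) and Mlxipl, which encodes ChREBP, by 0.81. Middle steps of the pathway had values near 0, with Tpi1 at 0.02, Pgk1 at −0.01 and Eno1 at 0.01.

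Gluconeogenic genes rose in part. Of 14 measured, 5 were called higher and 1 lower (median 0.51). Pck1, the cytosolic phosphoenolpyruvate carboxykinase, was high in both states (15.90 to 17.08 fed, 17.02 to 17.80 fasted), overlapped between them and rose by 0.79 (SE 0.214, adjusted p = 0.00486). G6pc, which releases free glucose, rose by 0.59 (SE 0.173, adjusted p = 0.0087), just past the fold of 1.5, and under 11 of the alternative settings it fell short of that fold. Glycerol kinase Gk, which brings glycerol into the pathway, rose by 2.20 (SE 0.0994, adjusted p = 4.57e-13) with every fasted array (13.17 to 13.80) above every fed one (11.04 to 11.65). Got1, the cytosolic aspartate aminotransferase, rose by 1.61 (SE 0.203). Slc37a4, which carries glucose 6-phosphate into the endoplasmic reticulum, fell by 0.68, whereas Fbp1 stood at 0.00 and Ppargc1a, a coactivator of the programme, at 0.56 without passing the test.

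Glycogen genes moved both ways, with 2 of 12 higher and 5 lower (median −0.31). Ppp1r3g, a glycogen-targeting subunit of protein phosphatase 1, rose by 3.20 (SE 0.348) from 7.45 to 9.66 in fed to 11.01 to 12.98 in fasted arrays. Pygl, the liver glycogen phosphorylase, fell by 1.61 (SE 0.0757, adjusted p = 6.42e-13) with tight groups (15.43 to 15.67 fed, 13.53 to 14.05 fasted), and Ugp2, which makes UDP-glucose, fell by 1.23 (SE 0.12). A breakdown enzyme and a synthesis enzyme thus both declined.

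Cholesterol synthesis and uptake fell most broadly of the 22 lists by number of members. Of 24 measured, 16 were called lower and 1 higher (median −1.18). Mvd, the decarboxylase of the mevalonate pathway, fell by 2.91 (SE 0.264) from 10.17 to 11.64 to 7.77 to 9.20, and Insig1, which anchors the SREBP complex in the endoplasmic reticulum, by 2.38 (SE 0.229). Sqle, the squalene epoxidase, fell by 1.82 with a wider error (SE 0.437) and overlapping groups (12.59 to 13.96 fed, 10.76 to 12.64 fasted). Srebf2, which encodes the regulator of these genes, had a value of −0.10 (SE 0.0966) and was not called. Hsd17b7 was the exception and rose by 1.18 (SE 0.165).

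Bile acid genes were called in 4 of 10 cases, 1 higher and 3 lower (median −0.27). Cyp7a1, the rate-limiting enzyme of bile acid synthesis, ranged from 11.39 to 12.96 in fed and from 8.57 to 11.42 in fasted livers, overlapped slightly and fell by 2.12 (SE 0.403, adjusted p = 0.000193). Nr0b2, the repressor SHP, fell by 1.54 (SE 0.261), and Cyp8b1, which sets the share of cholic acid, rose by 1.13 (SE 0.166). In lipoprotein and triglyceride assembly, 5 of 17 were higher and 3 lower (median 0.06). Apoa4, an apolipoprotein of triglyceride-rich particles, rose by 3.76 (SE 0.147, adjusted p = 4.11e-14) from 13.07, 13.22 and 13.82 in the lowest, median and highest fed array to 16.86, 17.07 and 17.35 in fasted ones. Angptl8, an insulin-responsive inhibitor of lipoprotein lipase, fell by 2.21 (SE 0.236), and the phosphatidate phosphatase Lpin2 rose by 1.27 (SE 0.201). The structural apolipoproteins Apob, Apoa1 and Apoe stood at 0.06, −0.05 and 0.01.

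Secreted hepatokines split evenly, with 5 of 15 higher and 5 lower (median −0.04). Inhbe, which encodes the subunit of activin E, rose by 2.82 (SE 0.232) from 10.72 to 11.46 to 12.49 to 14.50, alongside Fgf21. Leap2, the circulating antagonist of the ghrelin receptor, fell by 2.70 (SE 0.199, adjusted p = 4.75e-10) from a range of 12.77 to 13.60 to one of 9.30 to 11.35. Enho, which encodes adropin, fell by 1.05.

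Insulin signalling genes and FOXO targets changed in 7 of 17 cases, 5 higher and 2 lower (median 0.05). Irs2, the insulin receptor substrate that fasting raises, went from 10.56 to 11.56 to 12.61 to 13.48 and rose by 1.92 (SE 0.228, adjusted p = 5.14e-07). Igfbp1, the secreted binding protein of insulin-like growth factors, read 14.24 in its lowest fed array, 15.64 at the median and 15.89 at the highest, against 16.45, 17.22 and 18.49 when fasted, and rose by 1.73 (SE 0.34). The atypical cyclin Ccng2 rose by 1.53 (SE 0.14). Pik3r1, which encodes the p85α regulatory partner of p110α, fell by 0.84 (SE 0.0968, adjusted p = 3.70e-07) from 9.65 to 10.23 to 8.74 to 9.28, without overlap. Foxo1 itself lay at 0.05 (SE 0.117), Insr at 0.06 and Akt2 at −0.12, none of them called.

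Stress and hormone lists followed in several directions. Of 14 genes of the glucocorticoid and stress response, 9 were higher and 1 lower (median 0.79). The metallothionein Mt1, which binds zinc, rose by 3.96 (SE 0.316), and Cdkn1a, the cyclin kinase inhibitor p21, by 2.96 (SE 0.333). Tsc22d3, known as the glucocorticoid-induced leucine zipper, went the other way and fell by 2.00 (SE 0.192, adjusted p = 2.32e-08) from 13.69 to 14.40 to 11.72 to 12.52. Genes of growth hormone action and male bias were higher in 2 of 12 cases and lower in 3 (median −0.06). Socs2, a feedback inhibitor of the growth hormone receptor, rose by 2.57 (SE 0.482), and Igfals, which stabilises IGF1 in blood, fell by 0.98 (SE 0.138). Elovl3 had fed values of 11.89 to 14.10 and fasted values of 9.76 to 15.14, in which the lowest was replicate 4 and the next 14.33. Its increase of 1.41 (SE 0.465, adjusted p = 0.0181) was −1.42 on the slide that held replicate 4 and 2.27 and 1.62 on the other slides, and it was not called without array weights (0.83, adjusted p = 0.293).

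Chaperones of the endoplasmic reticulum fell together. Of 17 measured, 12 were called lower and none higher (median −1.04). Sdf2l1, a cofactor of the chaperone BiP, fell by 2.66 (SE 0.221, adjusted p = 2.66e-09) from 12.12 to 13.24 to a range of 9.30 to 10.28. Manf, a secreted stress protein of this compartment, fell by 2.17 (SE 0.224), Creld2 by 1.77 (SE 0.238) and Hspa5, which encodes BiP, by 1.48 (SE 0.176). The transcription factors Atf4 and Atf3 stood at −0.32 and 0.51 and were not called. Autophagy genes rose in 4 of 13 cases and fell in none (median 0.46), led by the cargo receptor Sqstm1 at 0.998 (SE 0.0676), the initiating kinase Ulk1 at 0.94 (SE 0.108) and the membrane protein Gabarapl1 at 0.93 (SE 0.112).

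The remaining lists moved little as groups. Amino acid breakdown and the urea cycle had 5 of 20 genes higher and 1 lower (median 0.22), led by Aass, which degrades lysine, at 1.68 (SE 0.118) and Tdo2, which degrades tryptophan, at 1.11 (SE 0.105). Sds, the serine dehydratase, was not called at 0.38 (SE 0.217), and the urea cycle enzymes Cps1 and Ass1 stood at −0.05 and 0.01. Clock genes were higher in 1 of 16 cases and lower in 3 (median −0.17), with Per2 at −1.504 (SE 0.141), Bhlhe40 at −1.03 (SE 0.158) and Nr1d1 at 0.74 (SE 0.18). The other probe of Per2 gave −0.27 and was not called. Antioxidant targets of NRF2 had 1 of 8 higher and 1 lower (median 0.15), namely the sulfiredoxin Srxn1 at 1.06 (SE 0.104) and the glutathione transferase Gstm1 at −0.70 (SE 0.104). Cell cycle genes had 1 of 15 higher and 3 lower (median −0.08), among the latter the cyclin Ccnd1 at −1.40 (SE 0.216) and the replication helicase subunit Mcm6 at −1.02 (SE 0.135). None of 13 acute phase genes was called by limma (median 0.00), although 4 of them passed the adjusted p alone, and under 7 of the alternative settings, among them those without replicate 4, 1 or 2 were called lower.

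Of 41 measured markers of other cells, 5 were called (12.2%), against 12.6% of all genes called in either direction. All 5 were lower in fasted livers, a direction in which 6.81% of all genes were called. No marker of Kupffer cells (7 measured), endothelium (7), lymphocytes (5), neutrophils (5) or erythroid cells (3) passed the test. Lrat and Col3a1, of 7 markers of stellate cells and fibroblasts, fell by 0.95 and 1.23, while the summed signal of that list stayed at 14.67 to 15.16 in fed and 14.72 to 15.41 in fasted livers. Krt19 and Spp1, of 5 markers of cholangiocytes, fell by 0.59 and 0.96, and the summed signal went from 9.61 to 10.84 in fed to 8.99 to 10.20 in fasted livers. Spp1 was read by a probe on which replicates 1 and 2 lay below the rest, and without these replicates 0 cholangiocyte markers were called lower and 1 higher, and 1 Kupffer marker was called higher. Cela1, of 2 measured markers of the exocrine pancreas, fell by 1.04, and the sum of both went from 12.90 to 13.86 in fed to 11.89 to 12.60 in fasted livers. In replicate 4 of LKO_Fasted the neutrophil sum was 11.46, against 9.89 to 10.60 in the other 5 fasted and 10.18 to 10.71 in the fed arrays. The summed Kupffer signal spread from 14.02 to 16.19 in fasted and from 14.42 to 15.20 in fed livers. The part of these cells in the changes above was not tested.

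The fasting change in LKO was next set against that in LWT within the same fit. This difference passed an adjusted p of 0.05 for 2172 genes (9.97%), and for 752 of them it also exceeded 1.5-fold (3.45%). Of the 2749 genes called in LKO, 1392 were also called in LWT (where 9.94% of genes were called) with the same sign and 7 with the other sign, and 826 showed the genotype difference. The LKO change that chose these genes is also part of the difference. The 826 are therefore given as a description and cannot be set against the share of all genes. Setting aside genes read by a probe on which replicates 1 and 2 parted from the rest, 767 of the 826 remained. Array weights bore on this test, since 1263 genes in all passed without them, and 1770 when replicate 4 was also left out. LWT_Fed replicate 3 carried a weight of 0.317 and LKO_Fasted replicate 4 one of 0.356, the 2 lowest of the 24.

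In fatty acid oxidation 15 of 22 members differed between genotypes, all of them with the larger increase in LKO, where the list's median was 1.21 against 0.73 in LWT. This count depended on the array weights. It was 3 without them, 14 when replicate 4 was left out as well, and 2 when replicates 1 and 2 were left out instead. PPARα targets showed 9 differences of 18, all in that direction (3 without weights, 11 without weights and replicate 4, 3 without weights and replicates 1 and 2), and lipid droplet genes 5 in that direction and 1 in the other. Cidec had a difference of 3.12 (SE 0.343, adjusted p = 1.53e-05), Acot2 of 2.70 (SE 0.386), Fgf21 of 2.04 (SE 0.356) and Ehhadh of 1.59 (SE 0.256). For Cidec, LWT livers read 8.41 to 10.02 when fed and 12.86 to 14.36 when fasted, so that LKO livers lay lower in the fed state and reached higher in the fasted one. Apoa4 had the same shape, with LWT arrays at 14.70 to 15.66 fed and 15.77 to 16.89 fasted, and a difference of 2.71 (SE 0.196, adjusted p = 9.82e-08). Cyp4a14 and Cyp4a10 did not pass this test, with differences of −0.14 (SE 0.465) and 0.30 (SE 0.485). Plin4 was the exception among droplet coats, since it rose by 2.31 in LKO and by 3.54 in LWT (difference −1.23, SE 0.259, adjusted p = 0.0049).

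**Figure D3:**
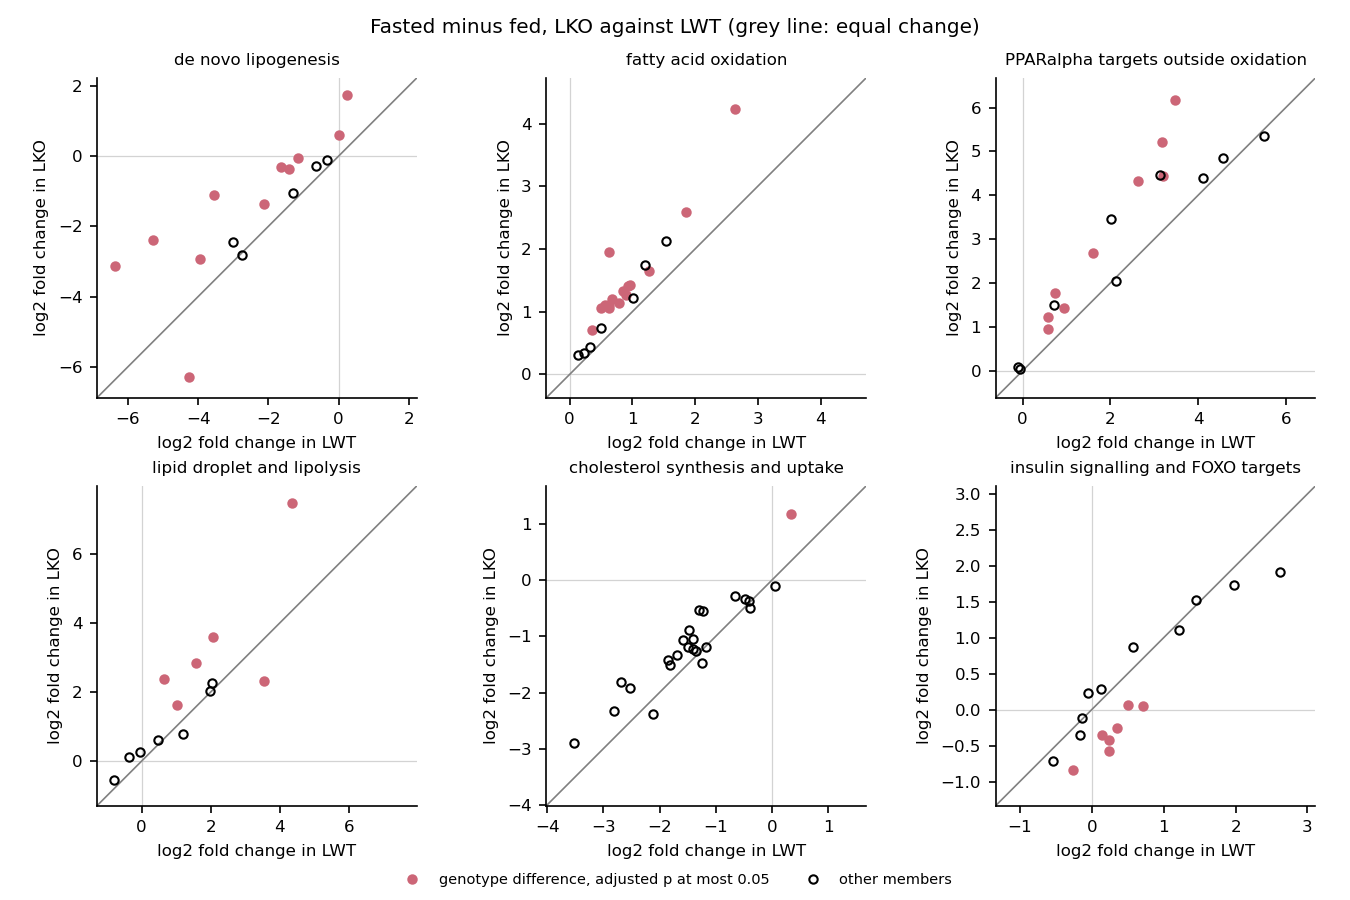
Log2 fold change of fasting in LKO (vertical axis) against that in LWT (horizontal axis) for the measured members of single gene lists, with points filled where the genotype difference passed an adjusted p of 0.05 and a grey line where both changes are equal. Fatty acid oxidation lies above the line (15 of 22 with a difference), and most of lipogenesis also lies above it (10 of 16 with a difference on that side, of which Elovl5 and Fads2 had larger increases in LKO and the other 8 less negative values, and Thrsp below the line).

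Lipogenic genes differed in both directions, more often toward a higher value in LKO. Of 16 members, 10 had a difference toward a higher value in LKO, of which 8 had less negative values and Elovl5 and Fads2 larger increases, 1 had a difference toward a lower value, and the list's median was −1.07 in LKO against −1.89 in LWT. The count of 11 was the same without array weights. Fasn averaged 16.63 ± 0.28 (SD, n = 6) fed and 13.71 ± 0.35 fasted in LKO, against 17.76 fed and 13.79 fasted in LWT, a difference of 1.004 (SE 0.198, adjusted p = 0.00297). The fasted means thus lay close together and the fed means apart. Elovl6, which elongates palmitate to stearate, fell by 1.099 in LKO and had a log2 fold change of −3.55 in LWT (difference 2.45, SE 0.267, adjusted p = 1.51e-05), and its LKO arrays lay lower than those of LWT when fed (12.98 to 13.43 against 13.87 to 15.26) and mostly higher when fasted (11.13 to 12.67 against 10.44 to 11.35). Me1, which makes NADPH for lipogenesis, was not called in LKO (−0.33, SE 0.163) and had a difference of 1.32 (SE 0.217), and Elovl5 one of 1.498 (SE 0.168). Pnpla5 and Pnpla3 gave 3.26 and 2.90, but their fasted signals were at background in both genotypes (0 of 6 and 0 of 6 LKO, 0 of 6 and 1 of 6 LWT arrays well above it), so these sizes reflect fed levels of 8.55 and 7.81 in LKO and of 12.09 and 11.12 in LWT against a floor. Thrsp was the 1 gene whose difference passed toward a lower value in LKO, where its fasted arrays lay at 9.79 to 11.17 against 12.61 to 13.82 in fasted LWT livers (difference −2.04, SE 0.321, adjusted p = 0.000444).

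**Figure D4:**
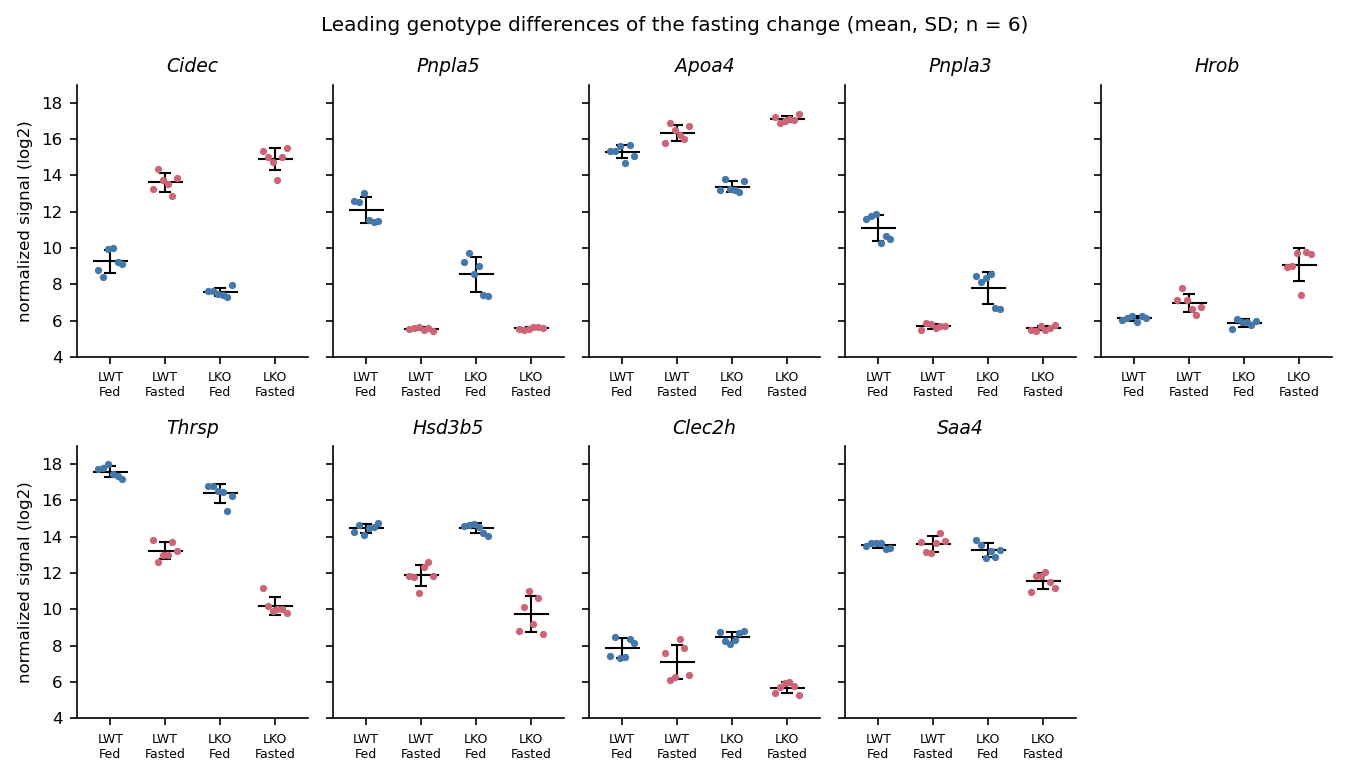
Normalized log2 signal (vertical axis) in the 6 arrays of each of the 4 groups for the named genes with the leading genotype differences. Points are arrays and the line and bar are mean and SD; Cidec and Apoa4 start lower and end higher in LKO, Thrsp ends lower in LKO, and the fasted arrays of Pnpla5 and Pnpla3 sit at the background floor in both genotypes.

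Insulin signalling genes had 7 differences of 17, all toward a lower value in LKO (4 without array weights). Foxo1 changed by 0.05 in LKO against 0.71 in LWT (difference −0.66, SE 0.156, adjusted p = 0.01), Irs1 by −0.42 against 0.23 (−0.65, SE 0.156) and Pik3r1 by −0.84 against −0.26 (−0.58, SE 0.129). Klf15, a factor of amino acid breakdown and gluconeogenesis, changed by −0.57 in LKO and 0.24 in LWT (−0.81, SE 0.222), and Pik3ca itself by −0.25 and 0.35 (−0.60, SE 0.155, adjusted p = 0.0181). Without array weights Klf15 did not pass limma's test (−0.79, adjusted p = 0.0554). The FOXO targets Irs2, Igfbp1 and Ccng2 did not pass this test, with differences of −0.69 (SE 0.303), −0.25 (SE 0.453) and 0.08 (SE 0.187). Neither did Pck1 (−0.81, SE 0.285, adjusted p = 0.0755) nor G6pc (−0.10, SE 0.231).

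Cholesterol synthesis responded to fasting with 1 genotype difference among 24 genes, that of Hsd17b7 (0.84, SE 0.219), and the medians were −1.18 in LKO and −1.41 in LWT. Chaperones of the endoplasmic reticulum also had 1 difference of 17, with medians of −1.04 and −1.06. Such counts do not show that the responses were alike; Sdf2l1, with a difference of 0.03 (SE 0.294), and Mvd, with 0.61 (SE 0.352), illustrate the errors. Glycolysis had 7 differences of 16, 3 higher and 4 lower (3 without array weights), with medians of −0.64 in LKO and −0.63 in LWT. Of all genes, 9.97% showed the difference, and the smaller counts in the other lists lie near that share. Differences numbered 5 of 17 for lipoproteins, 4 of 15 for hepatokines and 4 of 20 for amino acid breakdown. They were 3 of 14 for gluconeogenesis, 3 of 6 for ketone bodies, 3 of 12 for male bias, 3 of 13 for autophagy and 3 of 8 for NRF2. Glycogen had 2 of 12, glucocorticoids 2 of 14, the clock 2 of 16, bile acids 1 of 10, acute phase 0 of 13 and cell cycle 0 of 15. Without array weights these counts were 3 for lipoproteins, 2 for male bias and NRF2, 1 for amino acid breakdown, gluconeogenesis, ketone bodies and autophagy, and 0 for glycogen and bile acids, while those of hepatokines, glucocorticoids, the clock, acute phase and cell cycle stayed as they were. Without replicates 1 and 2, cell cycle had 4 and glycogen 4.

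Secreted and other products differed in single cases. Inhbe rose by 2.82 in LKO and 1.06 in LWT (difference 1.76, SE 0.31), Leap2 fell by 2.70 and 1.05 (−1.65, SE 0.266), and Tsc22d3 by 2.00 and 0.62 (−1.38, SE 0.256). Srxn1 changed by 1.06 in LKO and −0.01 in LWT (1.08, SE 0.139, adjusted p = 6.98e-05). Hrob, a factor of homologous recombination, rose by 3.47 in LKO from 5.51 to 6.11 to 7.41 to 9.77, where the lowest fasted array was replicate 4, and had a difference of 2.73 (SE 0.305). Only 3 fed LKO arrays of Hrob were well above background, so both sizes depend in part on that floor. Clec2h and Saa4, a lectin and a constitutive serum amyloid, fell by 2.79 and 1.76 in LKO against −0.71 and 0.17 in LWT, with differences of −2.08 (SE 0.478) and −1.93 (SE 0.274). Hsd3b5 gave −2.03 (SE 0.461), its fed means being equal at 14.46 in both genotypes and its fasted means 9.75 in LKO and 11.89 in LWT.

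The genes called with opposite signs in the genotypes numbered 7. Pnpla7, a lysophospholipase, rose by 0.59 in LKO (13.07 to 13.42 fed, 13.23 to 14.10 fasted) and fell by 0.62 in LWT. Sult1d1, a sulfotransferase, fell by 0.67 in LKO (12.34 to 12.83 fed, 11.41 to 13.44 fasted) and rose by 0.86 in LWT. Both overlapped between fed and fasted LKO arrays, and without array weights neither passed the fold and adjusted p together (0.52 and −0.48). Dzip1 and 4 transcripts known only by Ensembl identifiers made up the rest, and all 5 of these were read by a probe on which replicates 1 and 2 parted from the other fasted arrays.

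That group of probes is given apart from the results above. On 514 probes (1.58% of 32595), replicates 1 and 2 of LKO_Fasted both lay above all of replicates 3 to 6 by more than 1.5-fold between the nearest arrays, and on 30 probes (0.092%) both lay below. The median gap was 0.96 on the log2 scale for the former and the largest 6.17. The same arrays defined the group, so its size is a description with no test. Probes without a RefSeq symbol made up 43.4% of the 514, against 18.5% of all probes. Replicates 3 to 6 were all below background on 180 of them, and replicates 1 and 2 were well above it on all 514. On 437 probes replicates 1 and 2 were nearer to LKO_Fed than replicates 3 to 6 were, and on 499 replicates 3 to 6 were nearer to LWT_Fasted. Among chromosomes 1 to 19 and X, the share of probes on which both lay above ran from 0.57% on chromosome 17 to 2.30% on chromosome 13. On the sequence that mm9 assigns to chromosome Y without a place (Y_random), 40 of the 47 probes were of this kind (85.1%), CA584427 among them, and on placed Y sequence 1 of 15 was. The authors describe all animals as males, and the cause of this pattern was not tested.

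The 8 probes with the widest gaps in each direction, 4 and 4, are printed so that their targets can be looked up. Each is a 60-base oligonucleotide in the orientation of the array, positions refer to mm9 as given in the files, and no letters are capitalised because no motif was searched. Higher in replicates 1 and 2 were the following 4.
chr5:14944100-14944159: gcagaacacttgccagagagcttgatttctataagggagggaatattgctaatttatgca
chr5:15168445-15168504: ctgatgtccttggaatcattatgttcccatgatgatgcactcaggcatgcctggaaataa
CA584427: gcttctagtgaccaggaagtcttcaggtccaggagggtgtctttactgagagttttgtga
ENSMUST00000183285: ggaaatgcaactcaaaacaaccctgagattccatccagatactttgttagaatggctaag
Lower in replicates 1 and 2 were the following 4.
Gm6994: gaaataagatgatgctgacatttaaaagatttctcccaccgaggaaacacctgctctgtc
chr1:64232932-64232991: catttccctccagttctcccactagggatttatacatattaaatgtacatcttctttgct
chr19:61274302-61274361: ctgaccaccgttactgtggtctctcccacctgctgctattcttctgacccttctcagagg
Spp1: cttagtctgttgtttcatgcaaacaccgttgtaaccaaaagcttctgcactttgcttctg

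The first of these, at chr5:14944100-14944159, read 11.81 and 12.77 in replicates 1 and 2 and 5.33 to 5.63 in replicates 3 to 6. The fed LKO arrays spanned 9.63 to 12.47, so that replicates 1 and 2 lay in the upper part of the fed range or above it and the other 4 far below. LWT means were 6.30 fed and 8.04 fasted. The second, at chr5:15168445-15168504, behaved alike, with 11.43 and 12.38 against 5.14 to 5.47, and so did CA584427, with 10.71 and 10.98 against 5.27 to 5.39 and fed arrays of 10.12 to 10.75. For ENSMUST00000183285 replicates 1 and 2 (10.45 and 10.44) were above every fed array (8.26 to 9.66).

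In the opposite direction, Gm6994 read 6.21 and 6.44 in replicates 1 and 2, 7.48 to 8.04 in replicates 3 to 6 and 5.27 to 5.91 in fed livers, where it was below background on all arrays. The unannotated transcripts on chromosomes 1 and 19 had the same order of values. Spp1, which encodes osteopontin, read 7.49 and 7.58 in replicates 1 and 2, 8.59 to 9.57 in replicates 3 to 6 and 8.75 to 10.44 in fed livers, and replicates 3 to 6 therefore overlapped with the fed range.

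**Figure D5:**
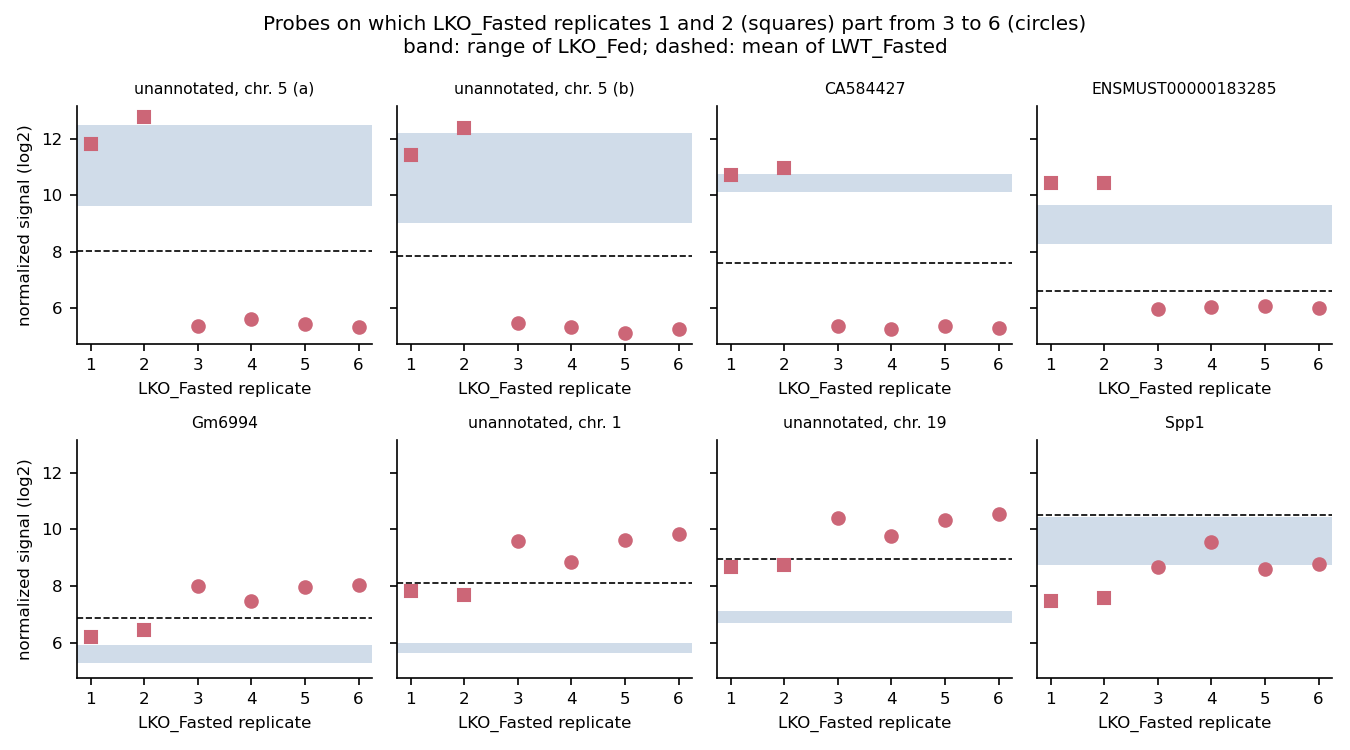
Normalized log2 signal (vertical axis) of the 8 probes with the widest gaps between replicates 1 and 2 (squares) and replicates 3 to 6 (circles) of LKO_Fasted. The band is the range of LKO_Fed and the dashed line the mean of LWT_Fasted; on the first probe the squares lie at 11.81 and 12.77 and the circles between 5.33 and 5.63.

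These probes entered the counts of called genes. They read 459 genes, of which 196 were called (42.7%), 178 lower and 18 higher. The arrays that defined the group also enter these calls, which are therefore given as a description. Without these genes, 2553 of 21320 were called (12.0%), 1248 higher and 1305 lower. Ddit3 of the chaperone list, which was not called, and Spp1 of the cholangiocyte list were the members of the lists above read by such a probe.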

How the data were processed

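Liver RNA of 24 mice, 1 per array, was put by the authors on Agilent arrays of 1 colour, which Feature Extraction 10.10.1.1 quantified. The deposited scanner files hold, per the file headers, spot intensity and another column that flags spots well above background, and they place probes on mm9. The deposited series matrix holds log2 values of 32595 of the 56605 probes, which the authors had filtered, corrected for washing bath and quantile normalized. Ranks in the matrix and ranks of the scanner's median intensity nearly coincided within every array (Spearman rho of at least 0.999996), and each column's median was between 8.06 and 8.07. The rule of the filter is not given in the sources used here, and the labels do not name the bath.

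Those log2 values were used without further scaling. For a gene with several probes, that of highest mean across the 24 arrays was used. limma 3.58.1 in R 4.3.3 fitted group means and slide with array weights to all 24 arrays (lmFit, arrayWeights and eBayes), and two-sided p-values were adjusted by Benjamini-Hochberg over all probes. The slide stood in for the bath and had an effect on 131 probes. Levels are given per array or as mean ± SD over 6 arrays. The number of arrays limits the precision, and no spot was saturated. For probes above background in no more than 1 array of a group, the fold is a bound against the lowest signal above background. The fit was tested on simulated data.

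Alternatives were the scanner's median and processed signals, normexp background correction, a filter on dim probes, other weights, slide and replicate terms, LKO arrays alone, arrays left out in turn, the mean of a gene's probes and other fold limits. Those that left out replicate 4 or replicates 1 and 2 and used no weights were chosen after seeing the data, as was the use of any alternative on counts of list members.

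The named genes were Pik3ca, the 6 leading increases and decreases, the 3 leading called members of each list (with Acacb, Acaa2, Foxo1 and Srebf2 as members near 0), the 5 leading genotype differences either way and the 4 widest parting probes. In the increases, decreases and genotype differences, only genes with a RefSeq symbol, with groups that do not overlap and without a parting probe were taken. Other named genes were chosen after their values were seen. Some genes that meet the rule are not reported here. The members and lists were chosen with earlier results of these data known. Promoters are RefSeq windows of GRCm38.p6, used for sequence only. Python 3.11.15 with numpy 2.4.6, pandas 2.3.3 and matplotlib 3.10.9 was used for tables and figures.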

Additional observations from a re-analysis of the deposited data

Results flagged for a closer look

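In 22 of the 210 groups of 6 LKO arrays examined for the named genes, 1 array lay further from the others than the 95% critical value of Dixon's test allows. Chance flags about 1 in 20 groups. Replicate 4 of LKO_Fasted was that array in 17 cases, each given here with its log2 signal and that of the nearest other fasted array in brackets. It was the lowest for Acot2 at 12.16 (13.76), Acot5 at 10.55 (11.93), Acot1 at 15.94 (16.86), Cyp4a10 at 16.46 (17.16), Pex11a at 15.54 (16.33), Cpt1a at 15.54 (15.82), Slc16a1 at 12.89 (13.33) and Acat1 at 12.79 (13.65). It was also the lowest for Cyp8b1 at 11.66 (12.84), Elovl3 at 9.76 (14.33), Creld2 at 12.76 (13.64), Ccnd1 at 8.69 (9.20), Hrob at 7.41 (8.97), Pygl at 13.53 (13.91) and Slc2a2 at 9.68 (10.51). It was the highest for Acly at 13.40 (12.38) and Sds at 14.96 (13.60). The genes here that were called higher in fasted livers were thus lowest in this array, on the side of the fed group, while Sds, which was not called (0.38), was highest. Of those that fell, Acly was on the side of the fed group and Creld2, Ccnd1, Pygl and Slc2a2 were on the far side. The other cases were Thrsp in LKO_Fasted replicate 1 at 11.17, Elovl6 in LKO_Fed replicate 3 at 13.43, Plin2 in LKO_Fed replicate 4 at 14.58, Lepr in LKO_Fed replicate 5 at 10.55 and Igfbp1 in LKO_Fed replicate 6 at 14.24.

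The genotype difference of the fasting change (LKO less LWT) passed an adjusted p of 0.05 in limma's test for 52 of the 105 named genes, of which 42 also passed without array weights and 37 under every setting tried. Many of the named genes were chosen with these values known, so the count says nothing of genes at large. The values of Pnpla5 (3.26) and Pnpla3 (2.90), whose fasted signals were at background in both genotypes, depend on that floor and have no place in an order. That of Hrob, given below, depends on the floor in part, since only 3 of its fed LKO arrays were well above background. Other differences toward a higher value in LKO were 3.12 for Cidec, 2.73 for Hrob, 2.71 for Apoa4, 2.70 for Acot2, 2.62 for Ntf3, 2.45 for Elovl6, 2.04 for Fgf21, 1.76 for Inhbe, 1.75 for Lepr and for Hilpda, 1.68 for Pdk4, 1.59 for Ehhadh, 1.55 for G0s2 and 1.498 for Elovl5. They were 1.32 for Me1, 1.27 for Acot5, 1.26 for Plin2, 1.25 for Gpat3, 1.23 for Acot1, 1.21 for Pnpla7, 1.09 for Acacb, 1.08 for Srxn1, 1.004 for Fasn, 0.97 for Gk, 0.86 for Slc16a1, 0.84 for Hsd17b7, 0.80 for Slc22a5, 0.73 for Bdh1, 0.72 for Crat, 0.54 for Ulk1, 0.53 for Sqstm1 and 0.38 for Cpt1a. Differences toward a lower value in LKO were −2.08 for Clec2h, −2.04 for Thrsp, −2.03 for Hsd3b5, −1.93 for Saa4, −1.65 for Leap2, −1.53 for Sult1d1, −1.38 for Tsc22d3, −1.24 for Col27a1, −1.23 for Plin4 and −1.08 for Sds. They were −0.85 for Pfkfb3, −0.81 for Klf15, −0.66 for Foxo1, −0.65 for Irs1, −0.60 for Pik3ca and for Igfals, −0.58 for Pik3r1 and −0.35 for Pygl. Igfals, at an adjusted p of 0.0435, passed in the fewest settings and missed in 16 of 24. Acot1, Acot5, Bdh1, Cpt1a, Crat, Igfals, Klf15, Pygl, Sds and Ulk1 did not pass without array weights.

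Among 24010 probes that the series matrix leaves out, 1 was well above background on all 6 LKO_Fasted arrays and on none of the LKO_Fed, LWT_Fed or LWT_Fasted arrays. It reads a transcript of Lepr, the leptin receptor (ENSMUST00000145024), and its median scanner signal was 109.25 in LKO_Fasted against 45.5, 41.75 and 45.25 in the other groups in that order. The Lepr probe in the matrix rose by 2.25 in LKO (SE 0.176, adjusted p = 1.08e-09) from 10.18 to 10.55 in fed to 12.21 to 13.15 in fasted livers, and 4 further probes of the gene were called in the same direction.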

How the results depend on the processing

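The 2749 calls by fasting in LKO (1266 higher and 1483 lower) became 9295 with no minimum fold change (4383 and 4912) and 992 with a minimum of 2-fold (486 and 506). With the scanner's processed signal scaled to the 75th percentile, 4053 genes were called, 1560 higher and 2493 lower, at a median of all genes of −0.08, and 2719 of the 2749 were among them. Leaving out 1 array at a time gave 2540 to 2976 calls, 1234 to 1348 higher and 1306 to 1628 lower. The other settings gave 2452 to 3103 calls. Replicate numbers did not pair the arrays, since same-numbered fed and fasted arrays deviated from their group means with correlations of −0.18 to −0.03. A replicate block gave 2733 calls, 2651 of them shared. Genotype differences numbered 2172, and 1263 without array weights. They ranged from 1380 (without LKO_Fasted replicate 6) to 2721 when 1 array was left out, and the cause was not tested. A gap above 1 in place of 1.5-fold left 241 of the 514 parting probes above and 4 of the 30 below. Of the 105 named genes, 94 kept their direction and side of the threshold under all 25 settings. In the lists, 1 chaperone was called higher under 4 settings, among them no array weights, and 1 lipid droplet gene lower without LKO_Fed replicate 5 or 6. Values that turned sign were small. Acacb, at −0.06 and between −0.19 and 0.043 with 1 array left out, gave 0.0063 without LKO_Fed replicate 2, 0.027 without LKO_Fasted replicate 2, 0.043 without LKO_Fasted replicate 3, 0.037 without LKO_Fed replicate 4, 0.013 without LKO_Fasted replicates 1 and 2, 0.042 without them and without weights, 0.014 without LKO_Fasted replicate 4 and without weights, and 0.019 as the mean of its probes. Foxo1, at 0.05 and between −0.078 and 0.13 with 1 array left out, gave −0.078 without LKO_Fed replicate 1, −0.0035 without LKO_Fasted replicate 1, −0.026 and −0.034 without LKO_Fasted replicates 1 and 2 with and without weights, and −0.0020 without replicate 4 and without weights. Sds, at 0.38, gave −0.0028 as the mean of its probes. Probes not well above background limit falls such as those of Pnpla5 and Pnpla3 to a bound.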

Other observations

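Of the 52 genes that changed by more than 8-fold in LKO, 32 were in none of the lists, 22 higher and 10 lower, and replicates 1 and 2 parted from the other fasted arrays on the probes of 1 and 3 of these. Those named here were chosen after their values were seen. Gpat3, which adds the first acyl chain to glycerol 3-phosphate, rose by 4.32 (SE 0.202, adjusted p = 6.35e-13) from 7.09 to 7.77 in fed to 11.29 to 11.95 in fasted livers. Slc22a5, the carnitine transporter OCTN2, rose by 3.54 (SE 0.118, adjusted p = 1.09e-14) from 10.04 to 10.74 to 13.52 to 14.06. Neither gene overlapped between fed and fasted arrays. Below 8-fold, Ntf3, which encodes the nerve growth factor relative neurotrophin-3, rose by 2.77 (SE 0.225) from 6.88 to 8.11 to 9.45 to 10.94 in LKO and stood at 0.15 in LWT. Aacs, a cytosolic synthetase that returns acetoacetate to lipid synthesis, fell by 3.21 (SE 0.326). The collagen chain Col27a1 fell by 3.23 (SE 0.202), and Hamp2, a relative of the iron hormone hepcidin, fell by 3.12 (SE 0.451).

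Probes of a gene did not always move together. The other probe gave a smaller change for Acot5 (1.51), Mt1 (2.04) and Cdkn1a (0.71), all called, and for Per2 (−0.27), not called. For Socs2 2 of 3 other probes (lowest 0.24) were called in the same direction, and for Lpin2 3 of 5 (lowest 0.19). Other probes of Got1 (1.68 and 1.70) and Plin2 (2.73) lay close to the sizes given above. The probe of Pip5k1a that reads transcript ENSMUST00000107229 rose by 4.18 (SE 0.289), from 9.16 to 10.94 in fed to 13.87 to 15.48 in fasted livers, while the gene's 2 other probes gave −0.07 and 0.08. Rad51b rose by 4.44 with a wide error (SE 0.812), since its fed arrays spread from 6.49 over a median of 8.17 to 11.13 and its fasted arrays lay between 12.56 and 13.35.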
